A study of Homo sapiens with 12 samples.

Results

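The 43 genes described here encode the transporters and enzymes of glycolysis, the enzymes that govern the entry of pyruvate into mitochondria, and genes of the cellular response to low oxygen. The rule takes them by gene symbol and holds no measured value, but the list was drawn up with earlier results of these data known. They are 43 of the 20114 symbols in the count table. The cells were T47D, a breast carcinoma line of human origin with progesterone receptor, starved of serum and then treated for 6 h or 18 h with vehicle, 100 pM or 10 nM of a progestin. The 6 groups shared the line, the starvation and a medium with charcoal-stripped serum, and no group was labelled as grown in low oxygen. Each group had 2 libraries, labelled replicate 1 and replicate 3, and the labels name neither the progestin compound nor the vehicle. The series is titled for responses of breast cancer cells to different amounts of progestin, and here both doses were set against vehicle and against one another. Whether the libraries of a group were separate cultures is not stated, so every p-value reflects the spread of these libraries only, which may be technical.

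Library totals lay between 34204970 and 41373890 counts, and 42 of the 43 genes had enough counts to test. CA9, a carbonic anhydrase that is a classical hypoxia marker, had 0 to 5 counts per library and was not tested. SLC2A3, a glucose transporter, passed the filter with only 0 to 12 counts per library, so no fold is given for it. The 10 luminal epithelial markers summed to 5330 to 11800 CPM (counts scaled to library size) in each library. The markers of basal cells (3.43 to 13.1 CPM), stroma (72.7 to 120 CPM), immune cells (2.27 to 4.02 CPM) and endothelium (0.104 to 0.927 CPM) were low beside them. At 10 nM, 7 of the 10 luminal markers fell at each time, beside 19.4% of all tested genes at 6 h and 15.2% at 18 h. Of the tested markers of the other cell types, 2 of 5 (basal), 1 of 6 (stroma), 0 of 1 (immune) and 1 of 1 (endothelium) were called at 6 h. Of all tested genes 42.0% were called there in either direction. The 13 mitochondrially encoded genes took 6.69% to 10.8% of counts, and in all 6 groups replicate 3 had the higher share. The part of these values in the results below was not tested, and in bulk RNA fewer cells of a type and less RNA per cell cannot be told apart.

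Glycolysis turns glucose into pyruvate, which is either reduced to lactate and exported or oxidised in mitochondria after the pyruvate dehydrogenase complex has converted it. The PFKFB enzymes make and degrade a small sugar phosphate that activates phosphofructokinase, and so set the pace of the pathway. The hypoxia-inducible factor HIF1A is made constantly and, in oxygen, is hydroxylated by EGLN enzymes and then marked for destruction by VHL. When oxygen falls it accumulates and drives glycolytic genes together with genes of vessel growth, mitophagy and collagen processing. In breast epithelium the progesterone receptor is a ligand-activated transcription factor, and T47D is a standard line for studying it.

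The promoters of 5 members are shown because they hold the largest rises described below (PFKFB3, P4HA2), members that rose and carry the HIF binding core (LDHA, BNIP3), and one that fell and carries it (ANKRD37). Each line is the 150 bases just before an annotated start (RefSeq, GRCh38.p14), read on the gene's strand, with every match to the core ACGTG or GCGTG on either strand in capitals. Where a gene had more than 1 start, the one with the most matches is printed.
PFKFB3, chr10:6202782-6202931, + strand: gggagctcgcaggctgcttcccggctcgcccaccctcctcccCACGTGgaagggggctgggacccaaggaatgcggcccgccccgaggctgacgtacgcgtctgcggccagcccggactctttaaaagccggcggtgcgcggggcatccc
P4HA2, chr5:132227092-132227241, - strand: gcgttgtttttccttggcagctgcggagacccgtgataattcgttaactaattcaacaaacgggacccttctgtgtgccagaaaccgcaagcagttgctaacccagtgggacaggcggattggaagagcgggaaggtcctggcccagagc
LDHA, chr11:18394413-18394562, + strand: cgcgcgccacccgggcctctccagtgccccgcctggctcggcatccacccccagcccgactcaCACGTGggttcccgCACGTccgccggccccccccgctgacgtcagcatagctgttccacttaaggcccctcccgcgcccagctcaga
BNIP3, chr10:131981924-131982073, - strand: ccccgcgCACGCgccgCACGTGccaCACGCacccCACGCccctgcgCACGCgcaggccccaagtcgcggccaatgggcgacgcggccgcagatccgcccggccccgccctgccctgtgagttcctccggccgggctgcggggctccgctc
ANKRD37, chr4:185396691-185396840, + strand: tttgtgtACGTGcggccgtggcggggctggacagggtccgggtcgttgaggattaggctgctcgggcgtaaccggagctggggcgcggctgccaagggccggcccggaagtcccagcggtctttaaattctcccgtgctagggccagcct

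The BNIP3 window held 6 matches, LDHA 3, PFKFB3 2 and ANKRD37 1, and the P4HA2 window held 0. A CACGTG reads as ACGTG on both strands and counts as 2. RefSeq promoters were found for 36 of the 43 members, with 64 starts. The core was present in the 250 bases before 39 of these 64 starts (60.9%), against 43.2% of 35116 starts of all genes. The longer core ACGTGC, which contains the first, was present before 13 of the 64 starts (20.3%) and before 5.8% of all starts, and the E-box CACGTG, which overlaps both, before 8 (12.5%) and 6.3%. AGAACA, the half-site bound by steroid receptors of the progesterone receptor's class, was present before 3 member starts (4.69%), against 12.4% of all, and the palindrome of GNACA and TGTNC 3 bases apart before 0, against 0.327%. By response to 10 nM at 6 h, the ACGTG or GCGTG core was present for 10 of the 13 matched genes that rose, 3 of the 5 that fell and 16 of the 17 with no call. Here a gene counts if any of its starts has a match, so these counts cannot be set against the shares of starts above. A match describes letters in this window and is not a binding site.

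At 10 nM members changed in both directions at each time. PFKFB3, a regulator of glycolysis, rose 11.1-fold at 6 h, P4HA2, a collagen-processing enzyme, rose 9.11-fold and PDP1, a phosphatase at the pyruvate gate, was 2.71-fold lower, while GAPDH and ENO1 of the core pathway had no call. In the edgeR quasi-likelihood fit over all 13872 tested genes (a call is an adjusted p under 0.05), 21 of the 42 tested members changed at 10 nM for 6 h, 15 higher and 6 lower. Of all tested genes 42.0% were called in that comparison (22.6% higher, 19.4% lower), beside 50% of the members. The members' median log2 fold change was 0.31, and that of all genes was -0.02, and with library-size scaling these were 0.17 and -0.14. At 10 nM for 18 h, 20 members (47.6%) changed, 16 higher and 4 lower, against a background of 34.1% (19.0% higher, 15.2% lower), with medians of 0.14 for members and -0.00 for all genes. At 100 pM only 2 members changed at 6 h (both higher, background 3.48%, made of 2.88% higher and 0.606% lower), and 8 changed at 18 h (7 higher, 1 lower, background 10.5%, made of 6.57% and 3.89%). All 84 calls made in the 9 comparisons held, and 88 were added, in a fit with the replicate number as a block. With the block, the member counts went from 21 to 32 and from 20 to 31 at 10 nM, and from 2 to 8 and from 8 to 24 at 100 pM (6 h and 18 h). The calls among all 13872 tested genes rose too. They went from 5826 to 8662 and from 4734 to 7767 at 10 nM, and from 483 to 1696 and from 1450 to 4728 at 100 pM. The fits with 1 library left out, here and below, held no block. Without vehicle replicate 3, the 20 calls at 10 nM for 18 h became 12, and the 8 at 100 pM for 18 h became 3, 2, 3 and 6 when vehicle 1, vehicle 3, 100 pM 1 and 100 pM 3 were left out in turn. The 2 calls at 100 pM for 6 h became 1 without any of the 4 libraries.

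**Figure D1:**
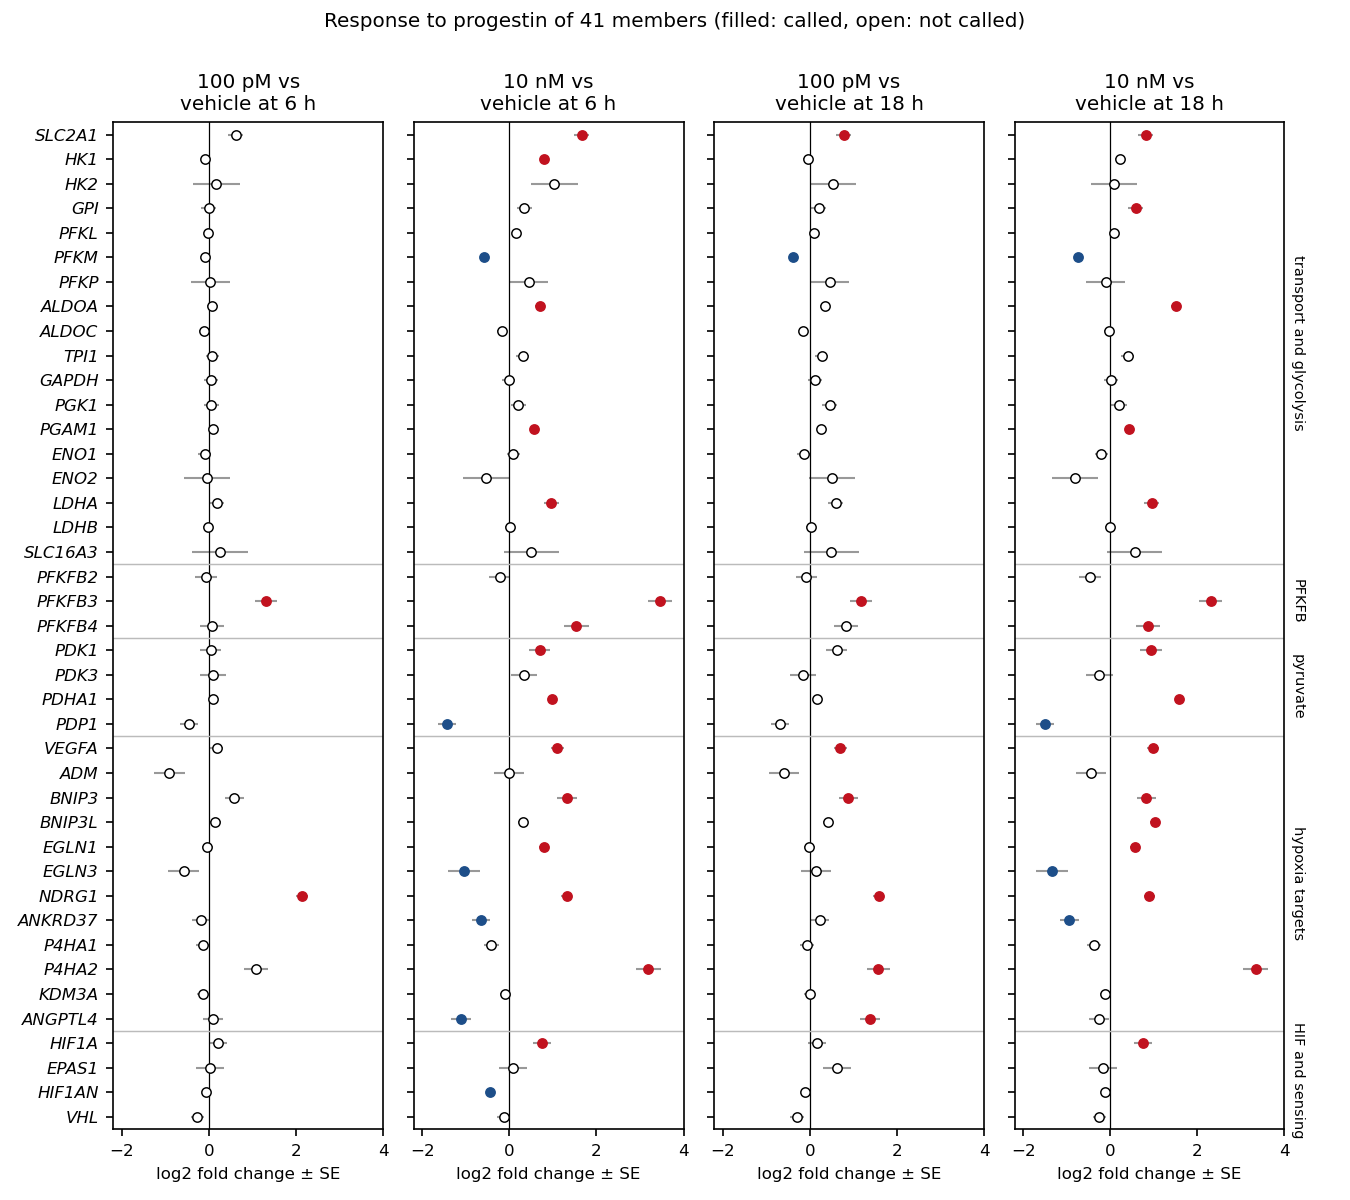
Log2 fold change against vehicle, with its standard error, for 41 tested members (SLC2A3 is left out for its low counts), by dose and time, from the edgeR fit. Filled points were called (red higher, blue lower) and open points were not. PFKFB3 and P4HA2 lie farthest to the right at 10 nM.

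The same genes were called at both times at 10 nM for the most part. Of the 15 members that rose at 6 h, 14 were among the 16 that rose at 18 h (93.3% of the first list, 87.5% of the second). The same shares over all tested genes were not computed, so these do not set the members apart from other genes. The exceptions were HK1 at 6 h, and GPI and BNIP3L at 18 h. All 4 members that fell at 18 h (PFKM, PDP1, EGLN3 and ANKRD37) were among the 6 that fell at 6 h, and ANGPTL4 and HIF1AN fell at 6 h only by the threshold. Between the vehicle libraries of 18 h and 6 h, 0 members were called with edgeR (0 at an unadjusted p under 0.05) and 0 with DESeq2, and edgeR called 0 of the 13872 genes (178 at an unadjusted p under 0.05).

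**Figure D2:**
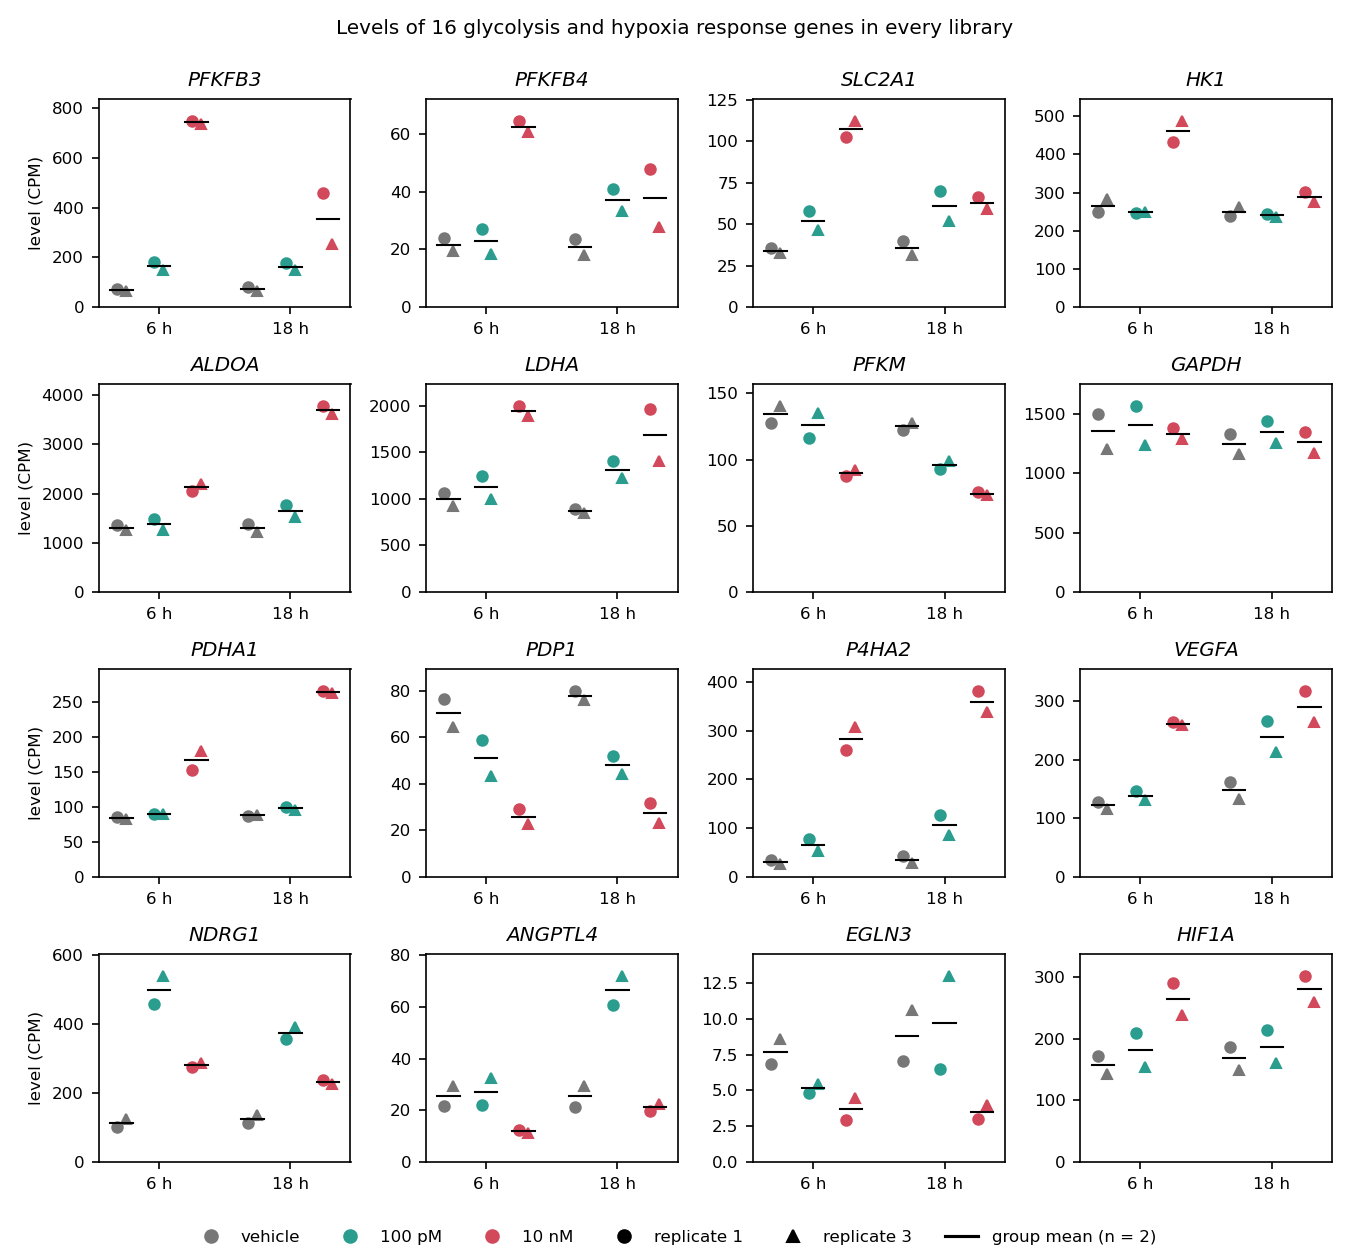
Level in CPM of 16 members in each of the 12 libraries, by dose and time, with the group mean as a bar (n = 2). PFKFB3 stood at 738 to 748 CPM at 10 nM for 6 h against 62.5 to 71.9 CPM in vehicle, NDRG1 and ANGPTL4 (18 h) were highest at 100 pM, and GAPDH stayed between 1165 and 1566 CPM.

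In the transport and glycolysis group, 6 of 19 genes changed at 10 nM at each time, 5 higher and 1 lower, a share of 31.6% against 42.0% of all genes at 6 h and 34.1% at 18 h. Levels are given below as CPM, scaled by the trimmed mean of M-values (TMM), with replicate 1 before replicate 3. SLC2A1, the main glucose importer of most cancer cells, was at 35.8 and 32.4 CPM in vehicle at 6 h, at 57.8 and 46.6 CPM at 100 pM and at 102 and 112 CPM at 10 nM. After 18 h it was at 39.6 and 31.7 CPM in vehicle, 70.3 and 51.8 CPM at 100 pM and 66.3 and 58.9 CPM at 10 nM. At both times all 4 treated libraries lay above both vehicle libraries, and the doses were apart at 6 h and overlapped at 18 h. The log2 fold change at 10 nM was 1.66 ± 0.18 (SE) at 6 h (3.15-fold, edgeR adjusted p = 0.000140) and 0.81 ± 0.17 at 18 h (edgeR adjusted p = 0.00723). At 100 pM it was 0.62 ± 0.17 at 6 h, with no call (edgeR adjusted p = 0.126, and 0.00404 with the block), and 0.78 ± 0.17 at 18 h (edgeR adjusted p = 0.0254). The call at 100 pM for 18 h was lost without vehicle 1, vehicle 3 or 100 pM 1 (edgeR adjusted p = 0.0552, 0.150 and 0.124) and in a fit to the 6 libraries of 18 h (0.0774). The call at 10 nM for 18 h was lost without vehicle 3 (edgeR adjusted p = 0.0566). SLC2A1 overlaps an antisense gene, SLC2A1-AS1, and the strand setting of the counting is not given in the sources used here.

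Hexokinases trap glucose in the cell by phosphorylation. HK1 was at 248 and 282 CPM in vehicle at 6 h and at 434 and 488 CPM at 10 nM, and at 18 h the 10 nM libraries came down to 301 and 277 CPM against 238 and 261 CPM in vehicle. It rose at 6 h (0.80 ± 0.10 log2, edgeR adjusted p = 0.000277) and had no call at 18 h (0.21 ± 0.10), where the block called it (edgeR adjusted p = 0.0364). At 100 pM it stayed at 237 to 250 CPM at both times. HK2 was at 82.4 and 45.7 CPM in vehicle and at 151 and 111 CPM at 10 nM for 6 h, a log2 difference of 1.03 ± 0.53 with no call, which the block called (edgeR adjusted p = 0.000116). GPI, which makes fructose phosphate, rose at 10 nM for 18 h only by the threshold, from 135 and 107 CPM to 198 and 163 CPM (0.58 ± 0.18, edgeR adjusted p = 0.0335). That call was lost without vehicle 3 or 10 nM 1 (edgeR adjusted p = 0.190 and 0.173) and with the libraries of 18 h alone (0.0794).

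Phosphofructokinase is the committed step, and its 3 isoforms did not move together. PFKM, the muscle isoform, was at 128 and 141 CPM in vehicle at 6 h and at 87.6 and 91.9 CPM at 10 nM. In the 18 h libraries it was at 122 and 128 CPM in vehicle, 93.0 and 98.9 CPM at 100 pM and 75.6 and 73.0 CPM at 10 nM, with no overlap between the 3 doses. It fell by 0.58 log2 at 10 nM for 6 h (SE 0.09, edgeR adjusted p = 0.00103), by 0.75 at 18 h (SE 0.09, edgeR adjusted p = 0.000326) and by 0.38 at 100 pM for 18 h (SE 0.09, edgeR adjusted p = 0.0303). The call at 100 pM was lost without vehicle 1, vehicle 3, 100 pM 1 or 100 pM 3 (edgeR adjusted p = 0.112, 0.147, 0.135 and 0.0854) and with that time alone (0.0868). PFKL, the liver isoform, ranged from 292 to 347 CPM over the 12 libraries with no call in any comparison. PFKP, the platelet isoform, ranged from 122 to 345 CPM, also with no call, and the block called it higher at 10 nM for 6 h (edgeR adjusted p = 0.00243) and at 100 pM for 18 h (0.00721). PFKM shares exonic sequence on the opposite strand with SENP1.

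The middle and the end of the pathway split in the same way between genes that changed and genes that did not. ALDOA, an aldolase, rose at both times at 10 nM, and more at 18 h. It was at 1363 and 1250 CPM in vehicle and 2058 and 2194 CPM at 10 nM at 6 h, and at 1380 and 1221 CPM in vehicle and 3778 and 3605 CPM at 10 nM at 18 h. The log2 fold changes were 0.70 ± 0.12 (edgeR adjusted p = 0.00177) and 1.51 ± 0.12 (2.84-fold, edgeR adjusted p = 3.87e-05). At 100 pM for 18 h it was at 1771 and 1531 CPM, above both vehicle libraries and with no call (edgeR adjusted p = 0.111, and 0.00508 with the block). LDHA, which reduces pyruvate to lactate, was at 1066 and 924 CPM in vehicle and 1999 and 1887 CPM at 10 nM for 6 h. At 18 h it was at 890.1 and 849 CPM in vehicle, 1405 and 1221 CPM at 100 pM and 1961 and 1404 CPM at 10 nM. Its rise at 10 nM was 0.97 ± 0.17 log2 at 6 h (edgeR adjusted p = 0.00218) and 0.95 ± 0.17 at 18 h (edgeR adjusted p = 0.00300), and at 100 pM for 18 h only the block called it (edgeR adjusted p = 0.0631 without and 0.000369 with it). PGAM1, a phosphoglycerate mutase, rose at 10 nM from 55.5 and 52.9 CPM to 76.6 and 84.9 CPM at 6 h (0.57 ± 0.09, edgeR adjusted p = 0.000788). After 18 h it rose from 53.7 and 53.8 CPM to 72.2 and 72.6 CPM (0.43 ± 0.09, edgeR adjusted p = 0.00475).

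GAPDH, widely used as a reference gene, ranged from 1165 to 1566 CPM over the 12 libraries, and its log2 fold changes against vehicle had no call at either dose or time. ENO1 (1005 to 1394 CPM), the main enolase, PGK1 (473 to 770.3 CPM), TPI1 (171 to 263 CPM), LDHB (19.3 to 22.8 CPM) and ALDOC (54.2 to 71.9 CPM) also had no call in any comparison. With the replicate block, TPI1 was called higher at 10 nM at both times (edgeR adjusted p = 0.00275 and 0.000788) and PGK1 likewise (0.0219 and 0.0380). ENO2, the neuronal enolase, was at 28.0 and 15.1 CPM in vehicle and 19.1 and 10.6 CPM at 10 nM for 6 h, and at 42.0 and 20.7 CPM and 23.3 and 12.6 CPM at 18 h. Neither difference was called. With the block ENO2 was lower at 10 nM at both times (edgeR adjusted p = 0.000380 and 1.50e-05) and higher at 100 pM for 18 h (0.000552), where it was at 54.5 and 34.4 CPM. SLC16A3, the lactate exporter, ranged from 26.2 to 94.4 CPM with no call, and the block called it higher at 10 nM at both times (edgeR adjusted p = 0.0208 and 0.0170). GAPDH has 62 named pseudogenes in GENCODE 29, PGAM1 13 and LDHA 6, and how reads shared with such copies were counted is not given in the sources used here.

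HK2, PFKP, ENO2 and SLC16A3 differed most between the replicates of a group. Replicate 1 was above replicate 3 in all 6 groups for each of them, by a median of 0.88, 0.81, 0.89 and 1.09 log2 units. SLC16A3 was at 64.9 CPM in replicate 1 and 28.5 CPM in replicate 3 of vehicle at 18 h. NDRG1, PDHA1 and PFKL, in contrast, had median differences of -0.18, 0.01 and 0.05. What the replicate numbers share is not stated. In all 6 groups replicate 3 also had the higher mitochondrial share, as given above. Whether that share has a part in these differences was not tested.

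**Figure D3:**
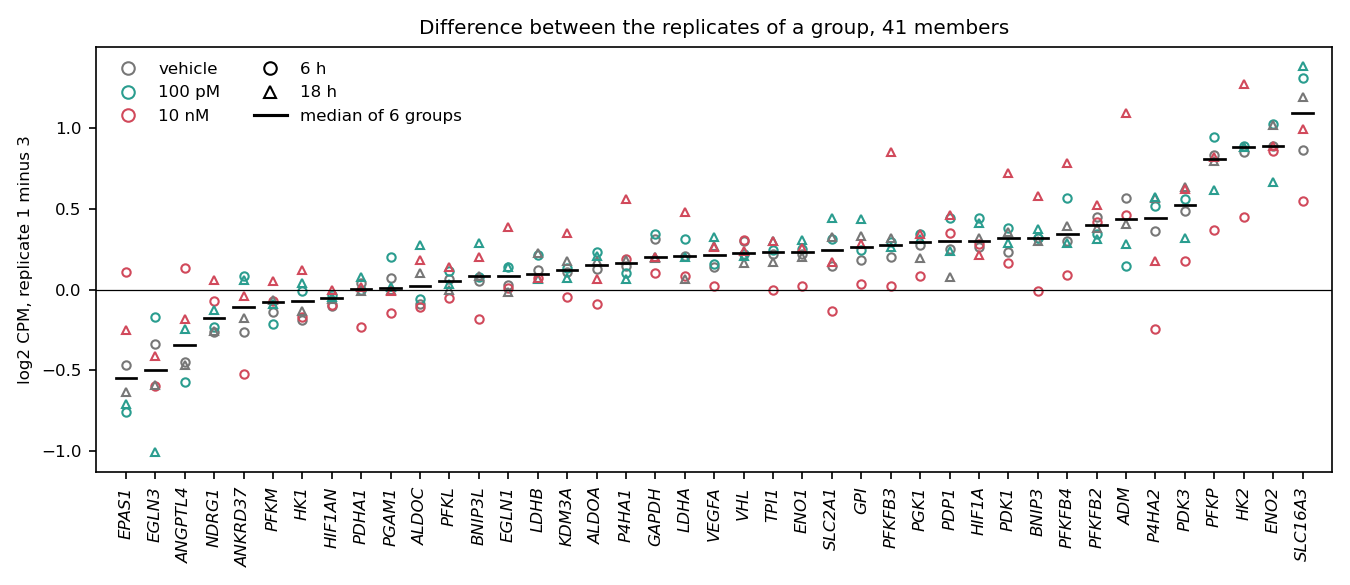
Log2 ratio of replicate 1 to replicate 3 in each of the 6 groups for 41 members, ordered by the median (bar). SLC16A3, ENO2, HK2 and PFKP lie at the right with medians of 1.09, 0.89, 0.88 and 0.81, and all 6 groups are above 0 for each of these 4 genes.

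The PFKFB enzymes held the largest change of all glycolytic members. PFKFB3, whose product strongly favours activation of phosphofructokinase, was at 71.9 and 62.5 CPM in vehicle at 6 h, 183 and 149.5 CPM at 100 pM and 748 and 738 CPM at 10 nM. In the 18 h libraries it was at 80.0 and 64.2 CPM in vehicle, 177 and 148 CPM at 100 pM and 457 and 254 CPM at 10 nM. The 3 doses did not overlap at either time, and the 2 libraries at 10 nM for 18 h were the most uneven. At 10 nM the log2 fold change was 3.47 ± 0.27 at 6 h (11.1-fold, edgeR adjusted p = 2.72e-05) and 2.30 ± 0.26 at 18 h (4.93-fold, edgeR adjusted p = 0.000243). At 100 pM it was 1.31 ± 0.25 at 6 h (edgeR adjusted p = 0.0255) and 1.17 ± 0.25 at 18 h (edgeR adjusted p = 0.0218). Both calls at 100 pM were lost without any 1 of their 4 libraries. With vehicle 1, vehicle 3, 100 pM 1 or 100 pM 3 left out, the edgeR adjusted p at 6 h was 0.121, 0.204, 0.135 and 0.0639. At 18 h it was 0.0742, 0.133, 0.0953 and 0.0553 in the same order, and 0.0915 with that time alone.

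PFKFB4, a related enzyme also induced by hypoxia, was at 23.9 and 19.4 CPM in vehicle at 6 h, 27.2 and 18.4 CPM at 100 pM and 64.6 and 60.6 CPM at 10 nM. It rose at 10 nM by 1.53 ± 0.28 log2 (edgeR adjusted p = 0.00259), and at 18 h by 0.86 ± 0.28 (23.6 and 18.0 CPM to 47.9 and 27.8 CPM, edgeR adjusted p = 0.0430). At 100 pM for 18 h it was at 40.8 and 33.5 CPM, above both vehicle libraries, with no call (edgeR adjusted p = 0.0985, and 0.000889 with the block). The call at 10 nM for 18 h was lost without vehicle 1, vehicle 3 or 10 nM 1 (edgeR adjusted p = 0.0679, 0.208 and 0.291), with no filter (0.0535), with that time alone (0.0777) and with library-size scaling (0.0520). PFKFB2, the heart isoform, stayed at 52.4 to 99.6 CPM with no call, and the block called it lower at 10 nM at both times (edgeR adjusted p = 0.00839 and 5.40e-05).

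At the pyruvate gate, 3 of 4 genes (75%) changed at 10 nM at each time, where 42.0% of all genes changed at 6 h and 34.1% at 18 h. PDHA1, the catalytic subunit of pyruvate dehydrogenase, was at 85.2 and 83.1 CPM in vehicle, 89.7 and 89.95 CPM at 100 pM and 153 and 180.3 CPM at 10 nM at 6 h. After 18 h it was at 88.0 and 88.5 CPM in vehicle, 101 and 95.7 CPM at 100 pM and 266 and 264 CPM at 10 nM. The 2 libraries of a group lay close together, and the 10 nM libraries were far above the rest. Its rise was 0.99 ± 0.08 log2 at 6 h (edgeR adjusted p = 4.02e-05) and 1.59 ± 0.09 at 18 h (edgeR adjusted p = 6.25e-06). PDHA1 overlaps exons of MAP3K15 on the opposite strand.

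PDP1, the phosphatase that reactivates pyruvate dehydrogenase, went the other way. It was at 76.4 and 64.3 CPM in vehicle, 58.9 and 43.4 CPM at 100 pM and 29.04 and 22.8 CPM at 10 nM at 6 h, and at 79.9 and 75.8, 52.1 and 44.2, and 32.0 and 23.2 CPM at 18 h. The 3 doses were in the same order with no overlap at both times. At 10 nM it fell by 1.44 log2 at 6 h (SE 0.21, 2.71-fold lower, edgeR adjusted p = 0.000687) and was 2.82-fold lower at 18 h (edgeR adjusted p = 0.000715). At 100 pM the log2 values of -0.46 ± 0.20 and -0.69 ± 0.20 had no call (edgeR adjusted p = 0.0656 at 18 h), and the block called both (edgeR adjusted p = 0.00309 and 7.86e-05). PDK1, a kinase that switches pyruvate dehydrogenase off, rose at 10 nM from 42.2 and 35.9 CPM to 67.0 and 59.9 CPM at 6 h (0.70 ± 0.24, edgeR adjusted p = 0.0454). By 18 h it rose from 40.6 and 31.8 CPM to 86.0 and 52.2 CPM (0.93 ± 0.24, edgeR adjusted p = 0.0175). The 6 h call was lost without vehicle 1, vehicle 3, 10 nM 1 or 10 nM 3 (edgeR adjusted p = 0.0837, 0.202, 0.168 and 0.0811), with no filter (0.0512) and with library-size scaling (0.0810). The 18 h call was lost without vehicle 3 or 10 nM 1 (edgeR adjusted p = 0.110 and 0.115). At 100 pM for 18 h PDK1 was called by the block only (edgeR adjusted p = 0.154 without and 0.00145 with it). PDK3 (8.99 to 19.2 CPM), a related kinase, had no call, and the block called it higher at 10 nM for 6 h (edgeR adjusted p = 0.0174).

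Among the 12 tested hypoxia targets, 8 changed at 10 nM at each time, 5 higher and 3 lower at 6 h, and 6 higher and 2 lower at 18 h. This is 66.7% of them, against 42.0% of all genes at 6 h (22.6% higher, 19.4% lower) and 34.1% at 18 h (19.0% higher, 15.2% lower). P4HA2, a subunit of the prolyl hydroxylase that matures collagen, had the largest rise of all members at 10 nM after PFKFB3 at 6 h. It was at 35 and 27.2 CPM in vehicle, 77.5 and 54.1 CPM at 100 pM and 259.7 and 307 CPM at 10 nM at 6 h. At 18 h it was at 42.4 and 28.7 CPM in vehicle, 126 and 85.0 CPM at 100 pM and 381 and 338 CPM at 10 nM. The doses stepped upwards with no overlap at both times. The log2 fold change at 10 nM was 3.19 ± 0.28 at 6 h (9.11-fold, edgeR adjusted p = 5.23e-05) and 3.34 ± 0.29 at 18 h (10.1-fold, edgeR adjusted p = 5.22e-05). At 100 pM it was 1.08 ± 0.27 at 6 h, with no call (edgeR adjusted p = 0.0740, and 0.00466 with the block), and 1.57 ± 0.27 at 18 h (edgeR adjusted p = 0.00785), a call lost without vehicle 3 (edgeR adjusted p = 0.0597). Its paralog P4HA1, also a hypoxia target, stayed at 61.7 to 106 CPM with no call, and the block called it lower at 10 nM at both times (edgeR adjusted p = 0.00324 and 0.00560). P4HA2 overlaps the antisense gene P4HA2-AS1.

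VEGFA, the growth factor for blood vessels, was at 129 and 117 CPM in vehicle, 146 and 131 CPM at 100 pM and 264 and 260.1 CPM at 10 nM at 6 h. After 18 h it was at 162 and 134, 267 and 213, and 318 and 265 CPM. The 100 pM libraries lay well below those at 10 nM at 6 h and overlapped them at 18 h. It rose at 10 nM by 1.10 ± 0.15 log2 at 6 h (edgeR adjusted p = 0.000423) and 0.98 ± 0.15 at 18 h (edgeR adjusted p = 0.00101), and at 100 pM for 18 h by 0.70 ± 0.14 (edgeR adjusted p = 0.0184). The call at 100 pM was lost without vehicle 3 or 100 pM 1 (edgeR adjusted p = 0.119 and 0.0937) and with that time alone (0.0784). ADM, a vasodilator peptide, stayed at 16.04 to 41.3 CPM with no call. With the block ADM was lower at 100 pM at both times (edgeR adjusted p = 0.00988 and 0.0300) and lower at 10 nM for 18 h (0.0401).

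BNIP3 and BNIP3L mark mitochondria for autophagy. BNIP3 was at 116 and 92.9 CPM in vehicle, 173 and 139 CPM at 100 pM and 261 and 263 CPM at 10 nM at 6 h, and at 119 and 96.7, 224 and 173, and 228 and 153 CPM at 18 h. The treated libraries lay above vehicle in each case, and the doses overlapped at 18 h. At 10 nM it rose by 1.33 ± 0.22 log2 at 6 h (edgeR adjusted p = 0.00158) and by 0.82 ± 0.22 at 18 h (edgeR adjusted p = 0.0199), and at 100 pM for 18 h by 0.88 ± 0.22 (edgeR adjusted p = 0.0377). At 100 pM for 6 h it had no call (0.58 ± 0.22, edgeR adjusted p = 0.310, and 0.00330 with the block). The 18 h call at 10 nM was lost without vehicle 3 or 10 nM 1 (edgeR adjusted p = 0.119 and 0.132) and with that time alone (0.0507). The 100 pM call was lost without vehicle 1, vehicle 3, 100 pM 1 or 100 pM 3 (edgeR adjusted p = 0.103, 0.191, 0.166 and 0.0578) and with that time alone (0.104). BNIP3L rose at 10 nM for 18 h, from 137 and 129 CPM to 290.5 and 253 CPM (1.03 ± 0.12, edgeR adjusted p = 0.000239). At 6 h it was at 164 and 186 CPM against 144 and 139 CPM, with no call (0.31 ± 0.12, edgeR adjusted p = 0.0634, and 0.0309 with DESeq2). BNIP3 has 39 named pseudogenes.

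NDRG1 at both times and ANGPTL4 at 18 h were highest at the lower dose. NDRG1, a stress and differentiation gene, was at 103 and 124 CPM in vehicle, 460.2 and 541 CPM at 100 pM and 275 and 289 CPM at 10 nM at 6 h. In the 18 h libraries it was at 114 and 136, 358 and 391, and 237 and 227 CPM. It rose at 100 pM by 2.14 ± 0.13 log2 at 6 h (4.42-fold, edgeR adjusted p = 0.000102) and by 1.58 ± 0.13 at 18 h (edgeR adjusted p = 0.000209), and at 10 nM by 1.31 ± 0.13 (edgeR adjusted p = 8.45e-05) and 0.89 ± 0.13 (edgeR adjusted p = 0.000820). The difference between doses was itself called at both times, at -0.83 ± 0.13 log2 (10 nM minus 100 pM, edgeR adjusted p = 0.00114) and -0.69 ± 0.13 (edgeR adjusted p = 0.00434). These 6 calls held in all alternatives, each left-out library included.

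ANGPTL4, a secreted inhibitor of lipoprotein lipase, was at 21.7 and 29.6 CPM in vehicle, 21.9 and 32.6 CPM at 100 pM and 12.4 and 11.3 CPM at 10 nM at 6 h. At 18 h it was at 21.4 and 29.5, 60.8 and 72.0, and 19.9 and 22.6 CPM. Vehicle and 100 pM overlapped at 6 h, and at 18 h vehicle and 10 nM overlapped while both 100 pM libraries stood above all others. It fell at 10 nM for 6 h by 1.11 log2 (SE 0.24, edgeR adjusted p = 0.00554) and rose at 100 pM for 18 h by 1.38 ± 0.23 (2.61-fold, edgeR adjusted p = 0.00755). The rise was not called without vehicle 1 (edgeR adjusted p = 0.0648). The difference of 10 nM from 100 pM was -1.20 ± 0.24 log2 at 6 h (edgeR adjusted p = 0.00454) and -1.65 ± 0.24 at 18 h (edgeR adjusted p = 0.00125). Its change with time at 100 pM (2.46-fold) had no call with edgeR (adjusted p = 0.434) and was called with DESeq2 (0.0358) and with the block (0.00415).

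The remaining hypoxia targets included 2 oxygen sensors that moved apart. EGLN1, the main hydroxylase that tags HIF1A in oxygen, rose at 10 nM from 81.2 and 79.5 CPM to 139.9 and 139 CPM at 6 h (0.80 ± 0.12, edgeR adjusted p = 0.000851). After 18 h it rose from 83.9 and 84.8 CPM to 141 and 108 CPM (0.56 ± 0.12, edgeR adjusted p = 0.00669). EGLN3, a related hydroxylase, was low throughout, at 6.82 and 8.61 CPM in vehicle and 2.96 and 4.49 CPM at 10 nM at 6 h, and at 7.05 and 10.6 and 2.98 and 3.96 CPM at 18 h. It fell by 1.05 log2 (SE 0.37, edgeR adjusted p = 0.0470) and by 1.35 (SE 0.37, edgeR adjusted p = 0.0218). The 6 h call of EGLN3 was lost without vehicle 1, vehicle 3, 10 nM 1 or 10 nM 3 (edgeR adjusted p = 0.0729, 0.191, 0.233 and 0.0662), with DESeq2 size factors in edgeR (0.0506) and with no filter (0.0522). Its 18 h call was lost without vehicle 3, 10 nM 1 or 10 nM 3 (edgeR adjusted p = 0.125, 0.119 and 0.0544) and with that time alone (0.0614).

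ANKRD37, a small ankyrin repeat protein and a direct HIF target, was at 3.08 and 3.69 CPM in vehicle and 1.77 and 2.54 CPM at 10 nM for 6 h. In the 18 h libraries it was at 3.22 and 3.63 CPM in vehicle and 1.75 and 1.80 CPM at 10 nM. It fell by 0.65 log2 (SE 0.21, edgeR adjusted p = 0.0364) and by 0.95 (SE 0.22, edgeR adjusted p = 0.00931). The 6 h call was lost without vehicle 1, vehicle 3 or 10 nM 1 (edgeR adjusted p = 0.0537, 0.189 and 0.210), with no filter (0.0501) and with that time alone (0.0932), and the 18 h call without vehicle 3 or 10 nM 1 (0.0566 and 0.0503). ANKRD37 had only 61 to 157 counts per library and overlaps UFSP2 on the opposite strand. KDM3A, a histone demethylase, ranged from 77.4 to 107 CPM with no call in any comparison, the block included.

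HIF1A itself rose at 10 nM. It was at 172 and 143 CPM in vehicle and 290.2 and 239 CPM at 10 nM at 6 h, and at 187 and 150 CPM and 302 and 259.8 CPM at 18 h. The log2 fold changes were 0.75 ± 0.21 (edgeR adjusted p = 0.0178) and 0.74 ± 0.21 (edgeR adjusted p = 0.0233). Both calls held with the block, and both were lost without vehicle 3 or 10 nM 1 in fits without it. With 1 library left out the log2 fold change was 0.60 to 0.89 at 6 h and 0.59 to 0.91 at 18 h. HIF1AN, which blocks the activity of HIF by another hydroxylation, fell at 10 nM for 6 h from 188 and 202 CPM to 139 and 149 CPM (log2 -0.44 ± 0.07, edgeR adjusted p = 0.00140). At 18 h it was at 177 and 184 CPM in vehicle and 166 and 167 CPM at 10 nM, with no call. EPAS1, another HIF alpha subunit (137 to 332 CPM), and VHL (83.5 to 123 CPM) had no call. The block called EPAS1 higher at 100 pM for 18 h (edgeR adjusted p = 0.0302) and VHL lower at 100 pM at both times (0.0109 and 0.00229) and at 10 nM for 18 h (0.00273). These are transcript levels, and the protein amount of HIF was not measured. HIF1A overlaps HIF1A-AS1, and HIF1AN overlaps NDUFB8.

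Compared directly, the doses differed for 17 members at 6 h (12 higher and 5 lower at 10 nM, background 37.0%, made of 20.1% and 16.8%) and for 12 at 18 h (6 higher and 6 lower, background 26.2%, made of 14.8% and 11.4%). With the block these were 31 and 25. Among all tested genes the block raised the calls from 5127 to 8231 at 6 h and from 3635 to 6958 at 18 h. PDHA1 had the smallest adjusted p at both times and differed by 0.89 ± 0.08 log2 at 6 h (edgeR adjusted p = 9.17e-05) and 1.43 ± 0.09 at 18 h (edgeR adjusted p = 2.20e-05). PFKFB3 was 4.47-fold higher at 10 nM than at 100 pM at 6 h (edgeR adjusted p = 0.000326) and 2.19-fold higher at 18 h (edgeR adjusted p = 0.0112). P4HA2 was 4.31-fold and 3.40-fold higher (edgeR adjusted p = 0.000473 and 0.00164). SLC2A1 was 2.06-fold higher at 6 h (edgeR adjusted p = 0.00190), and at 18 h the doses overlapped. ALDOA was higher by 0.62 ± 0.12 log2 at 6 h (edgeR adjusted p = 0.00395) and by 1.16 ± 0.12 at 18 h (edgeR adjusted p = 0.000244). HK1, EGLN1 and VEGFA were higher at 6 h by 0.89, 0.83 and 0.92 log2 (edgeR adjusted p = 0.000201, 0.000805 and 0.00134).

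The members lower at 10 nM than at 100 pM at 18 h were NDRG1, ANGPTL4, ANKRD37, EGLN3, PDP1 and PFKM. ANKRD37 was at 4.08 and 3.91 CPM at 100 pM and 1.75 and 1.80 CPM at 10 nM (2.25-fold lower, edgeR adjusted p = 0.00433). EGLN3 was at 6.47 and 13.0 CPM at 100 pM and 2.98 and 3.96 CPM at 10 nM (edgeR adjusted p = 0.0184), a call lost without 100 pM 3 or 10 nM 1 (edgeR adjusted p = 0.122 and 0.116) and with that time alone (0.0575). Several other calls between doses were lost when 1 library was left out. At 18 h these were PDP1 without 100 pM 1 or 10 nM 3 (edgeR adjusted p = 0.0983 and 0.0869), PFKM without 100 pM 3, 10 nM 1 or 10 nM 3 (0.0929, 0.0599 and 0.0778), EGLN1 without 100 pM 3 (0.0600) and PFKFB3 without 100 pM 3 or 10 nM 1 (0.0789 and 0.0504). PFKFB3 was also not called with that time alone (edgeR adjusted p = 0.0506). At 6 h BNIP3 was not called without 100 pM 3, 10 nM 1 or 10 nM 3 (edgeR adjusted p = 0.137, 0.0883 and 0.0768).

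The effect of 10 nM changed with time for 4 members, 3 with a higher and 1 with a lower log2 fold change at 18 h than at 6 h. The background was 10.5%, made of 4.55% higher and 5.99% lower. The effect of 100 pM changed for 0 members with edgeR (3 at an unadjusted p under 0.05, background 0.0144%) and for 1 with DESeq2. ALDOA gained 0.80 ± 0.17 log2 units of effect (edgeR adjusted p = 0.0232), BNIP3L 0.72 ± 0.17 (edgeR adjusted p = 0.0295) and PDHA1 0.60 ± 0.12 (edgeR adjusted p = 0.0181). HK1 lost them, at -0.59 ± 0.14 (edgeR adjusted p = 0.0315). For SLC2A1 (-0.84 ± 0.25) and PFKFB3 (-1.16 ± 0.35) the smaller effect at 18 h was not called with edgeR (adjusted p = 0.0637 and 0.0724) and was called with DESeq2 (0.0137 and 0.0122). The block raised the 4 calls to 15, 5 with a higher and 10 with a lower log2 fold change at 18 h. Among all tested genes the block raised the calls from 1462 to 4863, so the rise does not set the members apart. Some or all of the 4 calls were lost when any 1 vehicle or 10 nM library was left out. The differences were then 0.72 to 0.89 log2 for ALDOA, 0.62 to 0.81 for BNIP3L, 0.49 to 0.71 for PDHA1 and -0.68 to -0.50 for HK1. The 6 h and 18 h contrasts share no library.

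**Figure D4:**
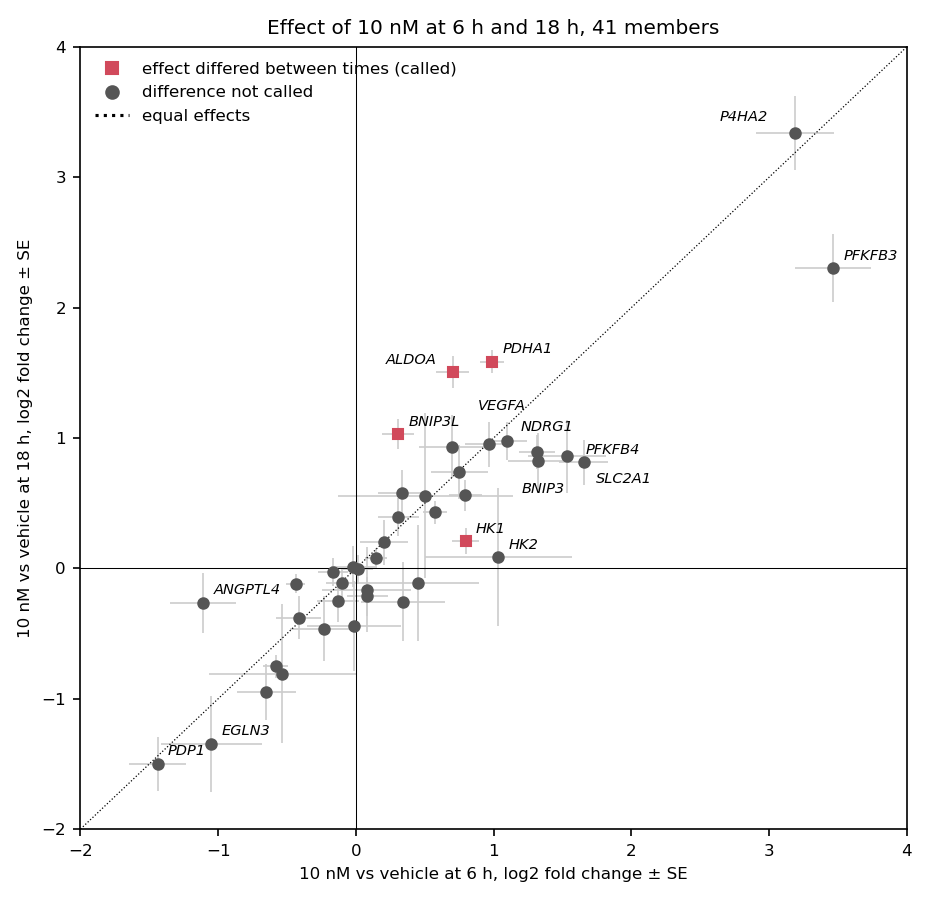
Log2 fold change at 10 nM against vehicle at 6 h (x axis) and 18 h (y axis) for 41 members, with standard errors and a line of equal effects. Red squares are the 4 members whose effect was called as different between the times, with ALDOA, PDHA1 and BNIP3L above the line and HK1 below it.

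Other genes of the same pathways come from lists that hold no member. Of 19 other glycolysis genes tested, 7 were called at 10 nM at each time, 4 higher and 3 lower at 6 h and 3 higher and 4 lower at 18 h, which is 36.8% at each time beside 42.0% and 34.1% of all genes. SLC16A1, a lactate and pyruvate carrier, went from 1.09 and 0.692 CPM to 7.89 and 8.46 CPM at 6 h (3.19 ± 0.30 log2, edgeR adjusted p = 6.25e-05). SLC2A13, an inositol carrier of the glucose transporter family, was lower at each dose and time, from 50.5 and 50.8 CPM to 26.9 and 26.0 CPM at 10 nM for 6 h (log2 -0.94 ± 0.08, edgeR adjusted p = 2.86e-05). PKM, which makes pyruvate, was higher at 100 pM for 18 h (848 and 909 CPM to 1187 and 1225 CPM, 0.46 ± 0.09, edgeR adjusted p = 0.0133), and at 10 nM it was lower than at 100 pM (819 and 826 CPM, log2 -0.55 ± 0.09, edgeR adjusted p = 0.00206).

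Of 14 other genes of pyruvate use, 5 were called at 10 nM for 6 h and 6 at 18 h (35.7% and 42.9%, beside 42.0% and 34.1% of all genes). PDK4, a kinase that inhibits pyruvate dehydrogenase, rose at each dose and time. It was at 3.51 and 3.95 CPM in vehicle, 15.8 and 13.9 CPM at 100 pM and 40.0 and 45.6 CPM at 10 nM at 6 h, and at 3.61 and 3.47, 13.9 and 11.9, and 51.9 and 55.2 CPM at 18 h. The log2 fold changes at 10 nM were 3.52 ± 0.13 (edgeR adjusted p = 1.13e-06) and 3.92 ± 0.14 (edgeR adjusted p = 1.08e-06), and those at 100 pM 1.99 ± 0.13 and 1.86 ± 0.13 (edgeR adjusted p = 0.000102 and 0.000110). CS, citrate synthase, rose at 10 nM by 0.68 ± 0.08 log2 at 6 h and 1.01 ± 0.08 at 18 h (edgeR adjusted p = 0.000272 and 4.14e-05). FBP1, an enzyme of gluconeogenesis, fell at 10 nM for 18 h from 42.95 and 54.9 CPM to 6.49 and 10.4 CPM (log2 -2.53 ± 0.25, edgeR adjusted p = 0.000122).

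Of 41 other hypoxia targets, 6 were called at 100 pM for 6 h (5 higher, 1 lower) and 11 at 18 h (10 higher, 1 lower), and at 10 nM 23 (17 higher, 6 lower) and 17 (12 higher, 5 lower). The shares were 14.6% and 26.8% at 100 pM, beside 3.48% and 10.5% of all genes, and 56.1% and 41.5% at 10 nM, beside 42.0% and 34.1%. CA12, a carbonic anhydrase related to CA9, was at 91.8 and 97.9 CPM in vehicle, 147 and 156 CPM at 100 pM and 532 and 526 CPM at 10 nM at 6 h, and rose by 2.48 ± 0.09 log2 (edgeR adjusted p = 1.13e-06). After 18 h it was at 77.2 and 89.1, 187 and 184, and 282 and 265 CPM. KDM4B, a histone demethylase, rose at 100 pM by 1.52 ± 0.16 log2 at 6 h (edgeR adjusted p = 0.00110) and at 10 nM by 1.85 ± 0.16 (edgeR adjusted p = 5.02e-05). BHLHE40, a transcriptional repressor, was highest at 100 pM and lowest at 10 nM at 18 h, with 107 and 106 CPM in vehicle, 234 and 205 CPM at 100 pM and 79.3 and 88.5 CPM at 10 nM. Its difference between doses was -1.39 ± 0.11 log2 (10 nM minus 100 pM, edgeR adjusted p = 5.83e-05).

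Of 15 other genes of HIF control, 0 were called at 100 pM at either time (1 and 4 at an unadjusted p under 0.05 with edgeR), and at 10 nM 8 at 6 h (5 higher, 3 lower) and 6 at 18 h (3 higher, 3 lower). All-gene shares were 3.48% and 10.5% at 100 pM, and at 10 nM the list's 53.3% and 40% stand beside 42.0% and 34.1%. ARNT, the partner subunit of HIF1A, fell at 10 nM for 6 h from 96.5 and 97.1 CPM to 51.3 and 49.3 CPM (log2 -0.94 ± 0.08, edgeR adjusted p = 3.85e-05). CITED2, which competes with HIF1A for its coactivator, was at 462 and 439.7 CPM in vehicle and 185 and 210 CPM at 10 nM for 6 h, and at 448 and 476 CPM and 176 and 187 CPM at 18 h. It fell by 1.19 log2 (SE 0.09, edgeR adjusted p = 1.76e-05) and by 1.35 (SE 0.09, edgeR adjusted p = 1.26e-05). TCEB1, elongin C, a subunit of the VHL ubiquitin ligase, rose by 1.20 ± 0.11 log2 at 6 h and 1.32 ± 0.11 at 18 h (edgeR adjusted p = 4.89e-05 and 3.62e-05).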

How the data were processed

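The table the authors deposited holds raw counts of reads for each gene symbol in 12 columns, all used, from Nextera libraries of total RNA, per the labels' protocols. The submitters' processing notes name STAR, DESeq2 and hg19. Counter, annotation, strand setting, versions: not given in the sources used here. Of the 20114 symbols 2709 had no count. Genes were kept with filterByExpr (minimum count 10, 6 groups), which left 13872, and scaled by TMM in edgeR 4.0.16 (R 4.3.3, limma 3.58.1). The quasi-likelihood F test (robust) used 1 coefficient per group over all 12 libraries, with 6 residual degrees of freedom, and p-values were adjusted by Benjamini-Hochberg over all 13872 genes in a comparison. CPM are counts over the TMM-scaled library size.

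The check of pairing by replicate number used the difference of replicate 1 and replicate 3 in each group. Across genes, which are not independent replicates, these differences had r of 0.576 to 0.791 over the 15 pairs of groups (median 0.655). Since the labels do not state what a number stands for, a fit with the number as a block is an alternative here. Its value is printed for only some of the calls that it changes. A member given above with no call and no block value may therefore be called with the block. The biological coefficient of variation was 0.163, and 0.0678 with the block. The chi-square per degree of freedom between the 2 libraries of a group was 42.0 to 64.0, above sampling noise. Other alternatives were DESeq2 1.42.0, its size factors in edgeR, no filter, the libraries of 1 time alone, each library left out and, chosen after seeing the data, library-size scaling without TMM. None of these held the block. With 1 library left out, the groups compared therefore also differed in replicate number. The part of this in the calls lost was not tested. TMM shifted the median gene by more than 0.1 in 1 comparison (10 nM against vehicle at 6 h, -0.125 log2 without it).

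The members and gene lists were chosen with earlier results of these data known. Every member may be named. Called members with the smallest adjusted p (up to 5 per role group and comparison) have their values in every library, and up to 3 called genes per other list and comparison with the smallest adjusted p could be named, of which the text gives some. On simulated counts (10 nM against vehicle at 6 h, 13872 genes), 62, 70 and 68 genes were changed 1.5-, 2- and 4-fold. The test called 24.2%, 55.7% and 83.8% of them, with 5 false calls. The simulation changed far fewer genes than the 42.0% called in the data, and held no difference shared by replicate number. It therefore does not give the sensitivity or the false calls of the real comparison. Promoters came from RefSeq (GRCh38.p14), were not lifted to the files' build, and were matched by symbol. BNIP3L, NDRG1, PDP1, PFKFB2, SLC2A3, VEGFA and VHL were not matched. Genes overlapping on the opposite strand and pseudogenes were counted by name in GENCODE 29 (22 and 15 of the 43 members have any). Only some of them are named above.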

Additional observations from a re-analysis of the deposited data

Results flagged for a closer look

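The effect of 10 nM differed between 18 h and 6 h for 4 members, by the test of that difference in edgeR. This is 9.52% of the 42 tested members, beside 10.5% of all tested genes, so the count does not set the members apart. HK1 had a smaller effect at 18 h (difference -0.588 log2, SE 0.138, edgeR adjusted p = 0.0315), with both 10 nM libraries above vehicle at each time. ALDOA had a larger one (0.803, SE 0.171, edgeR adjusted p = 0.0232), as had PDHA1 (0.599, SE 0.119, edgeR adjusted p = 0.0181) and BNIP3L (0.723, SE 0.166, edgeR adjusted p = 0.0295). The HK1 call was lost without any 1 of its 8 libraries, with edgeR adjusted p from 0.0502 to 0.100. The ALDOA call was lost without vehicle 1 or 3 of either time or 10 nM 1 of either time (0.0528 to 0.0839), and the BNIP3L call without the same 6 libraries (0.0786 to 0.0987). The PDHA1 call was lost without vehicle 1 or 3 of either time (0.0601 to 0.0718).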

How the results depend on the processing

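Of the 84 calls on members, 83 held with DESeq2 size factors in edgeR, 84 with DESeq2, 80 with no filter, 82 with library-size scaling and 54 when any 1 library was left out, and 68 of 80 held with the libraries of 1 time alone. No member that was called reversed its direction under these alternatives. With DESeq2 the members called were 4 (100 pM, 6 h), 14 (100 pM, 18 h), 1 (change of the 100 pM effect with time) and 7 (change of the 10 nM effect), against 2, 8, 0 and 4. Of all genes, DESeq2 called 849, 2231, 108 and 2316, against 483, 1450, 2 and 1462. With the libraries of 18 h alone, 3 members and 655 of all genes were called at 100 pM. The replicate block, which holds the pairing by number, called 8, 32 and 31 members at 6 h (100 pM and 10 nM against vehicle, and 10 nM against 100 pM), 24, 31 and 25 at 18 h, and 6 and 15 for the changes with time of the 100 pM and 10 nM effects. It changed no direction of a call. Of all genes, the block called 1696, 8662 and 8231 at 6 h and 4728, 7767 and 6958 at 18 h, in the same order. For the changes with time of the 100 pM and 10 nM effects it called 777 and 4863. With 1 library left out the counts were 1 to 1 (100 pM, 6 h), 17 to 19 (10 nM, 6 h), 16 to 18 (10 nM against 100 pM, 6 h), 2 to 6 (100 pM, 18 h), 12 to 20 (10 nM, 18 h), 8 to 11 (10 nM against 100 pM, 18 h) and 0 to 3 (change of the 10 nM effect), where the spread of a group with 1 library was taken from the other groups. The causes were not tested. Library-size scaling moved the share of higher genes among all calls at 10 nM for 6 h from 53.8% to 39.9%. CA9 had 0 to 5 counts per library and SLC2A3 0 to 12, and no fold is given for them.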

Other observations

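The pentose phosphate pathway branches from glycolysis and makes NADPH. Of its 8 listed genes, 0 were called at 100 pM for 6 h (edgeR, 0 at an unadjusted p under 0.05), 1 at 100 pM for 18 h (lower) and 4 at 10 nM at each time (all higher, 50% of the list beside 42.0% and 34.1% of all genes). H6PD, an enzyme of the endoplasmic reticulum that makes NADPH, took opposite directions at the 2 doses at 18 h. It was at 58.7 and 54.6 CPM in vehicle, 38.9 and 37.1 CPM at 100 pM and 157 and 172 CPM at 10 nM, with log2 changes of -0.58 ± 0.10 (edgeR adjusted p = 0.00679) and 1.54 ± 0.10 (edgeR adjusted p = 1.11e-05).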
